A study of Capra hircus with 25 samples.

Results

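The miR-23, miR-24 and miR-27 microRNAs (miRNAs, small RNAs that guide the silencing of messenger RNAs) were followed in the liver of Laiwu black goat kids (Capra hircus). Every entry of the miRNA table whose name carries the stem miR-23a, miR-23b, miR-24, miR-27a or miR-27b was taken, either arm and any species prefix, which gave 9 of 463 entries. They are chi-miR-23a (listed with no arm), chi-miR-23b-3p, chi-miR-23b-5p, chi-miR-24-3p, chi-miR-24-5p, chi-miR-27a-3p, chi-miR-27a-5p, chi-miR-27b-3p and chi-miR-27b-5p, written below without the goat prefix chi. Kids of 5 ages were profiled, 1 day old first and then 2, 4, 8 and 12 weeks old, as 5 libraries each and 25 in total. All groups were liver of the same breed, with no treatment named in the labels. The sex, the diet and whether each library came from a separate kid are not stated in the labels, so the p-values below measure the spread between these libraries. Bulk liver RNA was measured, and fewer cells of a type and less RNA per cell cannot be told apart.

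Each of these miRNAs is cut from a hairpin precursor as a pair of arms, 5p and 3p, and the 3p arm is the one that mostly loads into the silencing complex in this family. The hairpins lie in a pair of clusters in mammals, 1 with miR-23a, miR-27a and miR-24 and 1 with miR-23b, miR-27b and miR-24. A cluster is transcribed as a single precursor, while the mature levels also depend on processing and decay. In the goat RefSeq annotation (assembly ARS1.2, used for names and neighbours) MIR23A and MIR27A are neighbours on chromosome 7 within the span of ZSWIM4. On chromosome 8, MIR23B, MIR27B and MIR24 follow one another within the span of C8H9orf3. MIR24 is listed there on chromosome 8 alone, and its second hairpin, beside miR-27a, is background from other mammals. In mouse and human cells miR-27 represses genes of lipid metabolism and fat cell formation, miR-23 represses glutaminase and miR-24 represses cell cycle genes. In mouse fetal liver the miR-23b cluster is known to repress Smads of the TGF-beta pathway. The a and b copies have nearly the same mature sequence and share their seed, and in other mammals miR-24 comes from both clusters. Reads of miR-27a and miR-27b, or of miR-23a and miR-23b, could therefore be shared or divided by the counting. The rule for reads with several matches is not stated in the sources at hand. Levels of each copy are uncertain to that extent.

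The values are RPM (reads of a miRNA scaled to a shared library total), read as such from the numbers themselves. The reads behind them, estimated from the step between low values, came to between 7169463 and 12096213 per library (median 9526470). A single read was worth 0.0838 to 0.142 RPM. Replicates 1 and 2 at 4 weeks had median-ratio size factors of 0.910 and 0.822, against 1.11 to 1.18 in replicates 3 to 5. By a chi-square per degree of freedom over all miRNAs, replicate 2 was the one far from the others of its age (2128 to 2917), while replicate 1 differed from replicates 3 to 5 by 382 to 451. On the deposited scale, pairs with the 4-week age are also given without both where a call was made or changed. They are given without replicate 2 alone where that changes a call. Calls after the scalings described below are given with all 25 libraries only. Liver identity was checked with miR-122, miR-192-5p, miR-194 and miR-148a-3p, the hepatocyte markers. Their summed level was 254738 to 298856 RPM at 12 weeks and 238331 to 276733 RPM at 1 day, and none was at 0 in any library. Under the median-ratio scaling described below, 4 of 4 were called higher at 12 weeks against 1 day by limma, where 28.9% of all tested miRNAs were. As deposited 0 of 4 were called.

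Taken over all 25 libraries, the 5 main products differed widely in level. miR-27b-3p averaged 16187 RPM and ranked 15 of 463 entries. miR-24-3p followed with 8420 RPM at rank 20, and miR-23b-3p with 5100 RPM at rank 27. The copies from the other cluster were lower, with miR-23a at 3150 RPM (rank 39) and miR-27a-3p at 1918 RPM (rank 54). The 4 minor arms were far lower still, at 44.4 RPM for miR-24-5p, 16.9 RPM for miR-27b-5p, 4.18 RPM for miR-27a-5p and 1.83 RPM for miR-23b-5p. All 9 entries together held 3.70% ± 0.268, 3.50% ± 0.211, 3.43% ± 0.196, 3.40% ± 0.184 and 3.14% ± 0.101 of the miRNA reads at 1 day, 2, 4, 8 and 12 weeks (SD, n = 5 each). miR-27b-3p alone made up 45.4% of that sum at 12 weeks and 49.4% at 1 day. The order of the 5 main products by mean level was the same at every age.

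**Figure D1:**
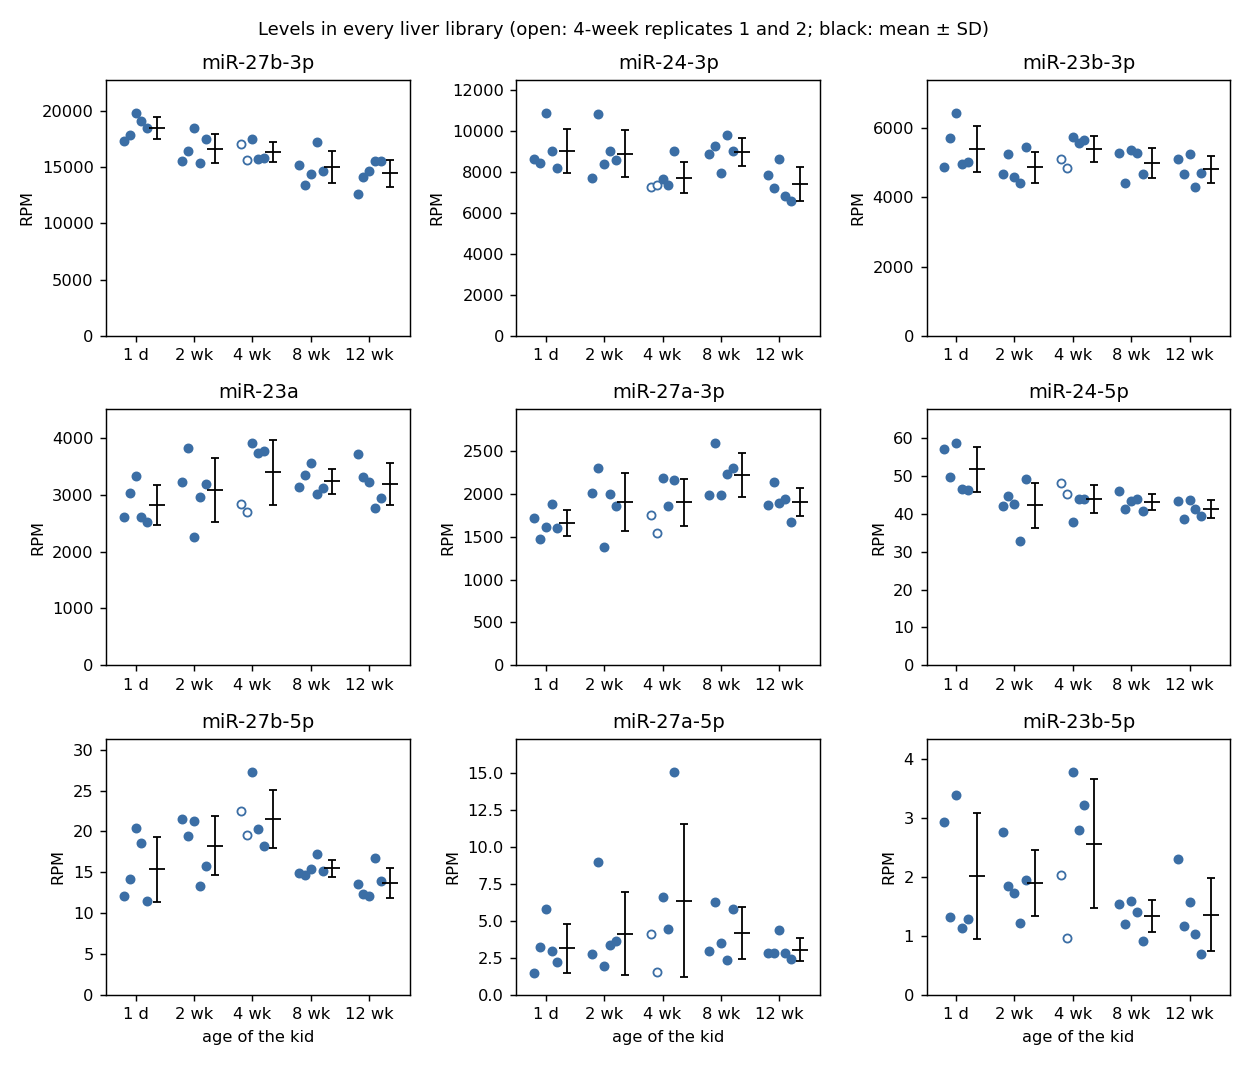
Levels of the 9 entries in RPM on a linear axis from 0, by age of the kid, with 1 point per library and the mean ± SD (n = 5) in black; open points are 4-week replicates 1 and 2. miR-27b-3p averaged 14471 RPM at 12 weeks and 18506 RPM at 1 day, while miR-27a-3p had its highest mean, 2221 RPM, at 8 weeks, and miR-27b-5p had its highest, 21.6 RPM, at 4 weeks.

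miR-27b-3p, the most abundant of the group, fell with age as deposited. Its level at 1 day was 17318, 17898, 19803, 19068 and 18443 RPM. At 2 weeks the libraries held 15552, 16416, 18436, 15339 and 17501 RPM, and at 4 weeks 17040.5, 15603, 17512, 15702 and 15767 RPM. The 1-day libraries were the highest as a group, with some overlap into the next age. At 8 weeks the level was 15215, 13439.8, 14388, 17253 and 14633 RPM, and at 12 weeks 12633, 14079, 14619.6, 15523 and 15502 RPM. No library at 8 or 12 weeks reached the lowest 1-day library. Of all tested miRNAs 53.1% had no overlap at 12 weeks against 1 day, and the share at 8 weeks was not computed. The means were 14471 ± 1196 RPM at 12 weeks and 18506 ± 972 RPM at 1 day (SD, n = 5 each). On the log2(RPM + 1) scale, miR-27b-3p fell by 0.36 ± 0.08 (SE) at 12 weeks against 1 day, with a 95% interval of -0.52 to -0.19 (limma adjusted p = 0.000325).

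That direction is tied to the scaling. The median change of all 405 tested miRNAs between 12 weeks and 1 day was -0.54 on the deposited scale, so miR-27b-3p fell less than the median miRNA. After median-ratio scaling, in which each library is divided by the median ratio of its miRNAs to their geometric means, the median of all miRNAs was -0.01. The change of miR-27b-3p was then 0.23 (adjusted p = 0.0863, limma), and 0.12 under trimmed-mean scaling (adjusted p = 0.361). Neither of these upward changes passed the test. On the deposited scale 57.8% of the tested miRNAs had a more negative change than miR-27b-3p.

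miR-27a-3p, the other miR-27 copy, moved the opposite way at 8 weeks as deposited. It stood at 1719, 1477, 1609.9, 1879 and 1598 RPM at 1 day. The 2-week libraries held 2013, 2303, 1377, 1993 and 1861 RPM and the 4-week libraries 1749.9, 1548, 2179.8, 1859 and 2164 RPM. Both ages overlapped 1 day. At 8 weeks the level was 1985, 2597, 1988, 2233 and 2303 RPM, and at 12 weeks it was 1872, 2134, 1891, 1935 and 1674 RPM. Every 8-week library lay above the highest 1-day library, while the 12-week libraries overlapped those at 1 day. How many of all miRNAs had no overlap at 8 weeks against 1 day was not computed, and 62.2% were called in that pair. miR-27a-3p rose by 0.42 ± 0.12 (SE, log2) at 8 weeks against 1 day, or 1.34-fold (limma adjusted p = 0.00518), and the rise was 0.84 under median-ratio scaling. On that scale miR-27b-3p was above 0 as well, at 0.11 without a call (adjusted p = 0.438). At 12 weeks against 1 day the change of miR-27a-3p was 0.20 ± 0.12 and did not pass (adjusted p = 0.152). It was 0.78 under median-ratio scaling (adjusted p = 1.52e-06) and 0.67 under trimmed-mean scaling (adjusted p = 1.74e-05).

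Neither miR-23 copy passed the test at 12 weeks against 1 day as deposited. miR-23a, which neighbours miR-27a, had 3728, 3325, 3228, 2769 and 2949 RPM at 12 weeks, against 2608, 3026, 3332, 2619 and 2524 RPM at 1 day. These ranges overlap. Its means were 2822 ± 346, 3093 ± 566, 3396 ± 572, 3239 ± 219 and 3200 ± 369 RPM from 1 day to 12 weeks (SD, n = 5 each). miR-23a changed by 0.18 ± 0.13 (log2) at 12 weeks against 1 day, which did not pass (limma adjusted p = 0.207), and by 0.77 under median-ratio scaling, which did (adjusted p = 2.07e-07). At 4 weeks the libraries fell apart, with 2847 and 2707 RPM in replicates 1 and 2 and 3921, 3737 and 3771 RPM in replicates 3 to 5. Its change at 4 weeks against 1 day was 0.26 with all libraries (adjusted p = 0.114) and 0.44 without replicates 1 and 2 (adjusted p = 0.0224). No call was made on leaving out any 1 library of these ages, replicate 2 alone included (lowest limma adjusted p = 0.0506). Replicates 1 and 2 held the lowest miR-23a levels of that age.

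miR-23b-3p, which neighbours miR-27b, held 5121, 4683, 5272, 4306 and 4695 RPM at 12 weeks, against 4879, 5708, 6441, 4975 and 5026 RPM at 1 day. The groups overlap over most of their range. The means were 4815 ± 385 RPM at 12 weeks and 5406 ± 665 RPM at 1 day, a log2 change of -0.16 ± 0.09 that did not pass (limma adjusted p = 0.128). Under median-ratio scaling the sign turned, to 0.42 (adjusted p = 0.000374), and under trimmed-mean scaling it was 0.31 (adjusted p = 0.00209).

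miR-24-3p, a product of both clusters in other mammals, had no steady course. It held 7839, 7239, 8629.98, 6826 and 6601 RPM at 12 weeks, against 8646, 8446, 10882, 9038 and 8215 RPM at 1 day. Only replicate 3 at 12 weeks reached into the 1-day range. Its means from 1 day to 12 weeks were 9045 ± 1070, 8908 ± 1170, 7730 ± 741, 8991 ± 670 and 7427 ± 821 RPM (SD, n = 5 each), so the 4-week and 12-week means were the low ones. miR-24-3p fell by 0.28 ± 0.10 (log2) at 12 weeks against 1 day (limma adjusted p = 0.0151), and the sign turned under median-ratio scaling, to 0.30 (adjusted p = 0.0165). Under trimmed-mean scaling it was 0.19 and did not pass (adjusted p = 0.103). The deposited call was lost without replicate 3 at 1 day (adjusted p = 0.0611). The difference of -0.28 between 12 and 8 weeks did not pass (adjusted p = 0.109).

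miR-24-5p, the minor arm of miR-24, held 43.5, 38.7, 43.7, 41.2 and 39.3 RPM at 12 weeks, against 57.2, 49.8, 58.8, 46.4 and 46.2 RPM at 1 day. The libraries of these ages did not overlap. It fell by 0.31 ± 0.12 (log2) at 12 weeks (limma adjusted p = 0.027), but changed by 0.26 under median-ratio scaling, which did not pass (adjusted p = 0.0907). The deposited call was lost without replicate 1 (adjusted p = 0.0696) or 3 (adjusted p = 0.0726) at 1 day, without replicate 2 at 12 weeks (adjusted p = 0.0580), and when only the libraries of these ages were fitted (adjusted p = 0.0597).

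Counted over the group, 3 of the 9 entries were called lower and 0 higher at 12 weeks against 1 day (limma). An unadjusted limma p under 0.05 was found for 3 of the 9, beside 278 of the 405 tested miRNAs. Over all 405 tested miRNAs 66.4% were called in this comparison, 54.8% lower and 11.6% higher, so the share of calls in the group was below the share over all miRNAs. All 9 entries passed the filter for testing (at least 1 RPM in at least 5 libraries). The libraries did not overlap for 2 of the 9, miR-27b-3p and miR-24-5p, against 53.1% of all miRNAs. The group's median change was -0.16, beside -0.54 for all miRNAs. Under median-ratio scaling 5 of the 9 were called higher and 0 lower, where 28.9% of all miRNAs were higher and 32.8% lower. These 5 were miR-23a, miR-27a-3p, miR-23b-3p, miR-24-3p and miR-27b-5p. The group's median was then 0.42, beside -0.01 for all miRNAs. Under trimmed-mean scaling 3 of the 9 were called higher and 0 lower, beside 101 higher and 150 lower of the 405. There miR-24-3p (limma adjusted p = 0.103) and miR-27b-5p (adjusted p = 0.110) were not called.

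**Figure D2:**
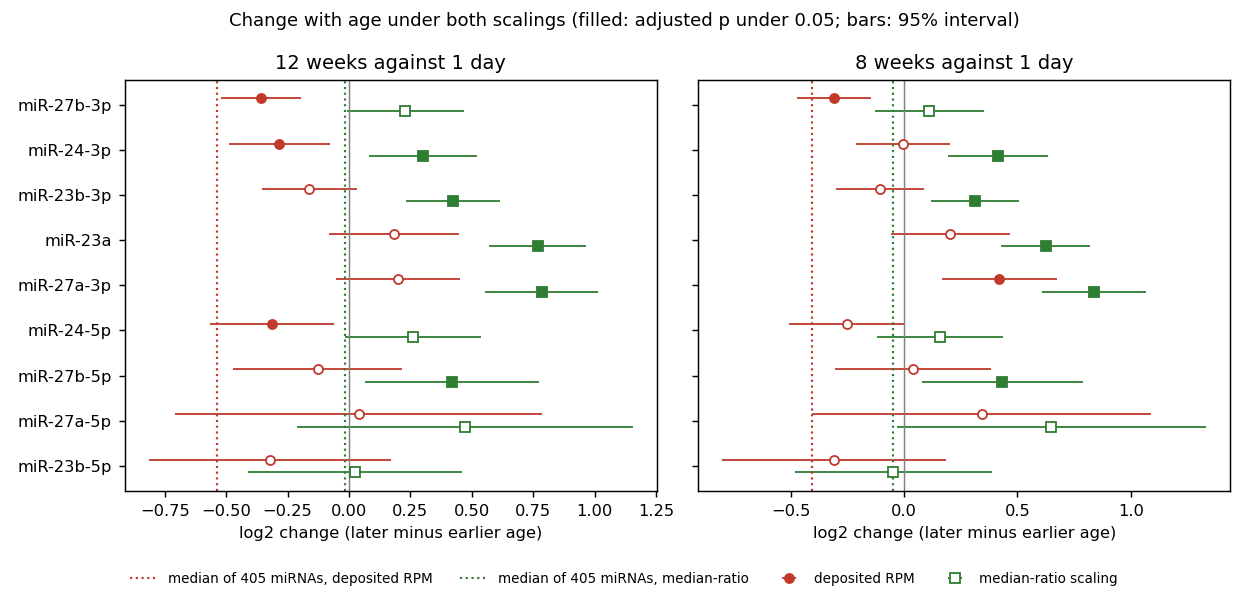
Log2 change of each entry at 12 weeks (left) and at 8 weeks (right) against 1 day, as deposited (red circles) and after median-ratio scaling (green squares), with 95% intervals; filled marks have an adjusted p under 0.05 and dotted lines are the median change of 405 miRNAs. At 12 weeks 3 entries lie below 0 with filled red circles and none with filled green squares, while miR-23a and miR-27a-3p lie above 0 under both scalings, filled only in green.

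An F test over the 5 ages called 3 of the 9 entries, where 64.7% of all miRNAs were called. These were miR-27b-3p (limma adjusted p = 0.00252), miR-27b-5p (adjusted p = 0.0181) and miR-24-3p (adjusted p = 0.0278). miR-27a-3p did not pass (adjusted p = 0.0620) but was called without 4-week replicates 1 and 2 (adjusted p = 0.0296). It was also called without any 1 of 4 libraries, which were 1-day replicate 4, 2-week replicates 2 and 3, and 4-week replicate 2 (adjusted p from 0.0197 to 0.0484). The other 5 entries had adjusted p-values from 0.145 to 0.440. Of these, miR-23b-5p was called without 4-week replicates 1 and 2 (adjusted p = 0.0186) and without replicate 2 alone (adjusted p = 0.0279). Under median-ratio scaling, where 60.7% of all miRNAs were called, 5 of the 9 entries were. The call of miR-27b-3p was lost (adjusted p = 0.441), and miR-23a (adjusted p = 1.91e-06), miR-27a-3p (adjusted p = 2.64e-06) and miR-23b-3p (adjusted p = 0.00167) were gained. The call of miR-24-3p was lost without 12-week replicate 2, 4 or 5 (adjusted p = 0.0540, 0.0640 and 0.0682 in that order). That of miR-27b-5p was lost without 4-week replicate 3 (adjusted p = 0.0616).

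The 10 pairs of ages place these changes in time. At 8 weeks against 1 day, where 62.2% of all miRNAs were called, miR-27a-3p was higher, as above, and miR-27b-3p lower by 0.31 ± 0.08 on the log2 scale (limma adjusted p = 0.00194). The miR-27b-3p value was 0.11 under median-ratio scaling, without a call. At 4 weeks against 1 day 36.8% of all miRNAs were called and 1 of the 9 entries, miR-27b-5p, was higher. miR-24-3p was called lower in that pair without 4-week replicate 5 (-0.28, adjusted p = 0.0367). Of all miRNAs 48.4% were called at 12 weeks against 2 weeks, and 2 entries were lower, miR-24-3p by 0.26 (adjusted p = 0.0350) and miR-27b-3p by 0.20 (adjusted p = 0.0370). Both of these calls were lost when only the libraries of these ages were fitted (adjusted p = 0.0715 and 0.0812), with the changes as large as before, and both changes were above 0 without a call under median-ratio scaling, at 0.11 and 0.17. The call of miR-24-3p was also lost without 2-week replicate 2 or 4 or 12-week replicate 2, 4 or 5 (adjusted p from 0.0573 to 0.123). That of miR-27b-3p was lost without 2-week replicate 2, 3 or 5 or 12-week replicate 1, 2 or 3 (adjusted p from 0.0509 to 0.119). In the same pair miR-27b-5p was called lower without 2-week replicate 4 (-0.48, adjusted p = 0.0250) or 12-week replicate 4 (-0.44, adjusted p = 0.0418). The comparison of 12 weeks with 4 weeks called 37.5% of all miRNAs and 1 entry, miR-27b-5p, which was lower.

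In the remaining pairs 0 of the 9 entries were called by limma on the deposited scale. At 2 weeks against 1 day 5.68% of all miRNAs were called, and 1 entry had an unadjusted p under 0.05. At 8 weeks against 4 weeks 6.91% were called, and 3 entries had an unadjusted p under 0.05. Only 1.23% were called at 12 weeks against 8 weeks, with 1 such entry. At 4 weeks against 2 weeks 2.96% and at 8 weeks against 2 weeks 29.9% were called, with 0 such entries in either pair. Over all 405 tested miRNAs, 106, 109, 77, 72 and 165 had an unadjusted limma p under 0.05 in these pairs, in the order named. The counts of such entries are to be set beside these numbers and not beside the shares called.

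Under median-ratio scaling members were called higher in 8 of the 10 pairs and lower in 0. miR-23a and miR-27a-3p were called at 2 weeks against 1 day, where 5.43% of all miRNAs were higher, by 0.34 (limma adjusted p = 0.0304) and 0.41 (adjusted p = 0.0292). At 4 weeks against 1 day 18.0% of all miRNAs were higher and 4 of the 9 entries, namely miR-23a (0.52, adjusted p = 0.000232), miR-27a-3p (0.45, adjusted p = 0.00333), miR-23b-3p (0.26) and miR-27b-5p. At 8 weeks against 1 day 24.9% were higher and 5 of the 9 entries, which were miR-27a-3p, miR-23a (0.62), miR-24-3p (0.42), miR-27b-5p (0.43) and miR-23b-3p (0.31). miR-27a-3p, the entry of the a cluster that rose at 8 weeks as deposited, was thus higher at each later age than at 1 day on this scale. Under trimmed-mean scaling 2, 4 and 4 entries were called higher at 2, 4 and 8 weeks against 1 day. Of the 405 miRNAs 19, 66 and 92 were. miR-27b-5p was not called at 8 weeks there (limma adjusted p = 0.0696).

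Between the later ages the scaled calls were fewer. At 8 weeks against 2 weeks 16.0% of all miRNAs were called higher and 3 entries, miR-27a-3p (0.43), miR-23a (0.29) and miR-23b-3p (0.24). At 12 weeks against 2 weeks 25.2% were higher and 4 entries, miR-23a (0.43), miR-27a-3p (0.38), miR-23b-3p (0.35) and miR-24-5p (0.34). At 8 weeks against 4 weeks 4.69% were higher and 2 entries, miR-27a-3p (0.39) and miR-24-3p (0.38). At 12 weeks against 4 weeks 20.2% were higher and 2 entries, miR-27a-3p (0.33) and miR-23a (0.25). At 4 weeks against 2 weeks 2.22% and at 12 weeks against 8 weeks 0.247% of all miRNAs were higher, and 0 of the 9 entries were called by limma in either pair. There miR-23b-3p at 4 weeks against 2 weeks (0.19) was the only entry with an unadjusted p under 0.05. Under trimmed-mean scaling 2 entries were called higher at 8 weeks and 3 at 12 weeks against 2 weeks, beside 55 and 89 of the 405 miRNAs. Against 4 weeks 1 was at 8 weeks and 0 at 12 weeks, beside 13 and 61. The calls lost were miR-23b-3p in the first of these pairs, miR-24-5p in the second, miR-27a-3p in the third, and miR-27a-3p and miR-23a in the last.

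Each comparison of levels above depends on how the libraries are scaled, whereas the ratio of a pair of members within a library does not. In all, 11 ratios were tested between 12 weeks and 1 day by an exact two-sided permutation test of the mean log2 ratio, adjusted over the 11 ratios. With 5 libraries per age the smallest p the test can give is 0.00794. Ratios of other pairs of miRNAs were not tested, so no share over all pairs can be set beside the calls. For single miRNAs on the deposited scale, 53.1% had no overlap between these ages. The ratio of miR-27a-3p to miR-27b-3p was 0.148, 0.152, 0.129, 0.125 and 0.108 at 12 weeks, against 0.0993, 0.0825, 0.0813, 0.0986 and 0.0866 at 1 day. All 12-week libraries lay above all 1-day libraries. The ratio was 1.47-fold higher at 12 weeks, by 0.56 on the log2 scale (exact permutation p = 0.00794, adjusted p = 0.0291, higher in 5 of 5 libraries). The mean ratio ran 0.0897, 0.116, 0.116, 0.150 and 0.132 from 1 day to 12 weeks. As a share, miR-27a-3p made up 8.22% ± 0.730, 10.4% ± 2.15, 10.4% ± 1.26, 13.0% ± 1.99 and 11.7% ± 1.40 of the miR-27 3p arms at these ages (SD, n = 5 each).

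The ratio of miR-23a to miR-23b-3p moved in the same direction. It was 0.728, 0.710, 0.612, 0.643 and 0.628 at 12 weeks, against 0.534, 0.530, 0.517, 0.526 and 0.502 at 1 day. Again every 12-week library lay above every 1-day library, and the 1-day libraries were tightly grouped. The ratio was 1.27-fold higher at 12 weeks, by 0.34 on the log2 scale (exact permutation p = 0.00794, adjusted p = 0.0291, higher in 5 of 5 libraries). miR-23a made up 39.9% ± 1.84 of the miR-23 3p products at 12 weeks and 34.3% ± 0.555 at 1 day (SD, n = 5 each). At 4 weeks the ratio was 0.555 and 0.556 in replicates 1 and 2 and 0.666 to 0.683 in replicates 3 to 5.

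**Figure D3:**
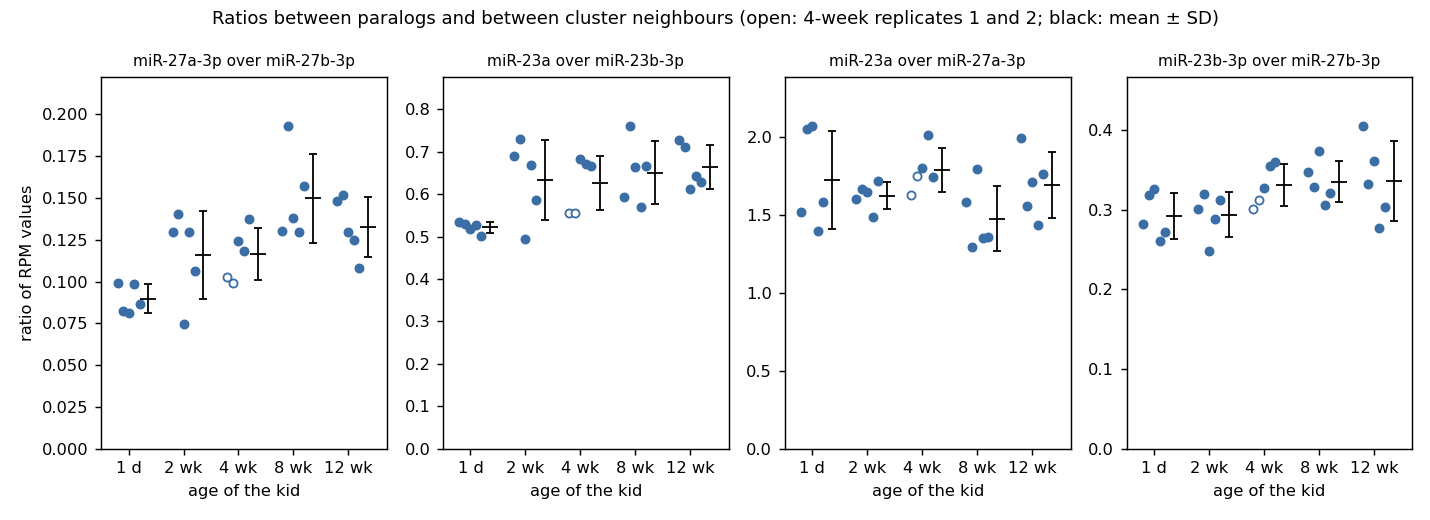
Ratio of RPM values within each library, by age, for the copies of miR-27 and of miR-23 (left pair of panels) and for neighbours within each cluster (right pair), on linear axes from 0 with the mean ± SD (n = 5) in black; open points are 4-week replicates 1 and 2. The mean ratio of miR-27a-3p to miR-27b-3p was 0.132 at 12 weeks and 0.0897 at 1 day, and that of miR-23a to miR-27a-3p was 1.69 at 12 weeks and 1.72 at 1 day.

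The ratio of the miR-23 to the miR-27 neighbour did not pass the test in either cluster. miR-23a over miR-27a-3p averaged 1.69 ± 0.213 at 12 weeks and 1.72 ± 0.316 at 1 day (SD, n = 5 each), a log2 difference of -0.02 (exact permutation adjusted p = 0.889). miR-23b-3p over miR-27b-3p averaged 0.336 ± 0.0499 at 12 weeks and 0.292 ± 0.0286 at 1 day, a log2 difference of 0.19 (exact permutation adjusted p = 0.371). These p-values do not show that the neighbours moved alike. The libraries of both ages overlapped in each ratio. Whether the ratios of copies differ from these ratios of neighbours in their change with age was not tested.

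miR-24-3p, with a hairpin in both clusters in other mammals, was compared with a miR-27 arm of each. miR-27a-3p over miR-24-3p was 0.239, 0.295, 0.219, 0.283 and 0.254 at 12 weeks, against 0.199, 0.175, 0.148, 0.208 and 0.194 at 1 day, without overlap. It was 1.40-fold higher at 12 weeks (log2 difference 0.48, exact permutation p = 0.00794, adjusted p = 0.0291, higher in 5 of 5 libraries). This ratio shares miR-27a-3p with the ratio of the miR-27 copies, so these calls are not separate results. miR-27b-3p over miR-24-3p averaged 1.97 ± 0.332 at 12 weeks and 2.06 ± 0.159 at 1 day (SD, n = 5 each), a log2 difference of -0.07 (exact permutation adjusted p = 0.764).

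The 4 minor arms made up 0.186% ± 0.0107 of the reads of the group at 12 weeks and 0.192% ± 0.0170 at 1 day (SD, n = 5 each). The ratio of the 5p to the 3p arm compares what is kept of both strands of a precursor. Among the minor arms, miR-27b-5p was the one called by the F test. It stood at 12.2, 14.2, 20.4, 18.5 and 11.5 RPM at 1 day, and at 22.5, 19.6, 27.2, 20.3 and 18.2 RPM at 4 weeks. The 12-week libraries held 13.6, 12.3, 12.0, 16.7 and 13.9 RPM. The 12-week values all lay below the 4-week ones, and the 4-week values overlapped those at 1 day. The share of all miRNAs without overlap at 12 weeks against 4 weeks was not computed. Means were 15.4 ± 3.94, 18.2 ± 3.60, 21.6 ± 3.54, 15.5 ± 0.994 and 13.7 ± 1.86 RPM from 1 day to 12 weeks (SD, n = 5 each).

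miR-27b-5p was 0.48 ± 0.17 (log2) higher at 4 weeks against 1 day (limma adjusted p = 0.0271), and 0.73 under median-ratio scaling (adjusted p = 0.00234). The difference stayed at 0.50 without 4-week replicates 1 and 2 (adjusted p = 0.0661) and at 0.48 with only the libraries of these ages (adjusted p = 0.0748), without a call in either. The call was also lost, with differences of 0.40 to 0.47, on leaving out any 1 of 5 libraries. Those were replicates 1, 2 and 5 at 1 day and replicates 1 and 3 at 4 weeks, with adjusted p-values from 0.0549 to 0.0812. At 12 weeks against 4 weeks miR-27b-5p was lower by 0.61 ± 0.17 (adjusted p = 0.00565), with a change of -0.63 without 4-week replicates 1 and 2 (adjusted p = 0.0103), and lower by 0.31 under median-ratio scaling, where the call was lost (adjusted p = 0.153). The mean ratio of miR-27b-5p to miR-27b-3p was 0.000824, 0.00110, 0.00132, 0.00104 and 0.000950 from 1 day to 12 weeks. At 4 weeks it ran from 0.00115 to 0.00156, above the 1-day range of 0.000624 to 0.00103 in every library, a description with no test. Between 12 weeks and 1 day the log2 ratio differed by 0.22 (exact permutation adjusted p = 0.454).

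**Figure D4:**
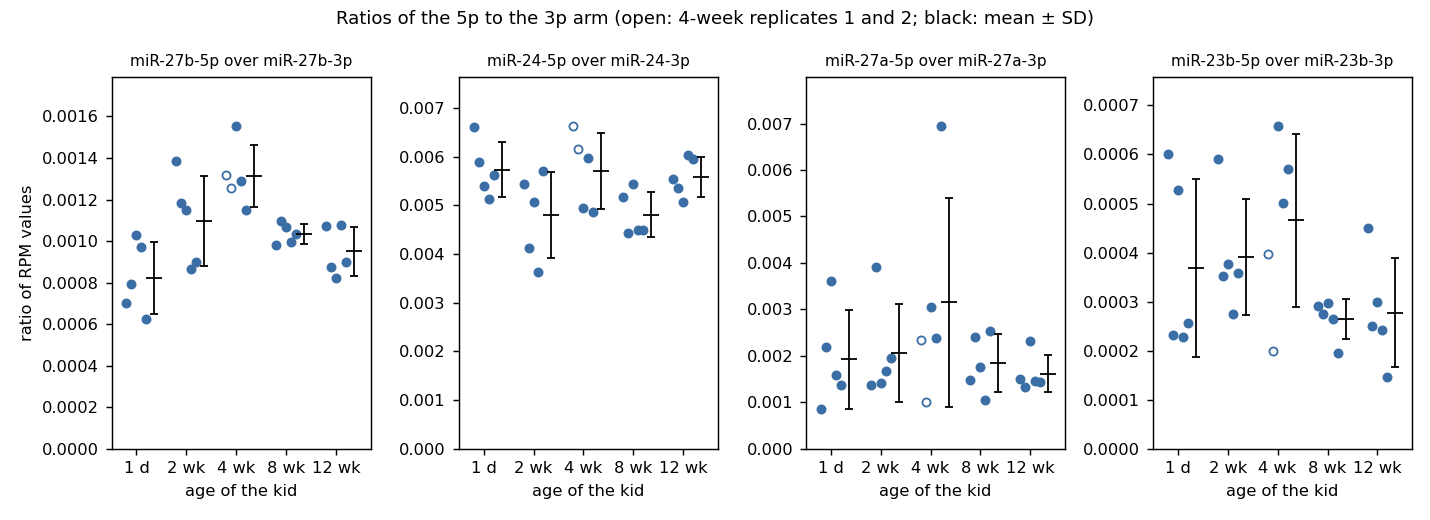
Ratio of the 5p to the 3p arm within each library, by age, for miR-27b, miR-24, miR-27a and miR-23b, on linear axes from 0 with the mean ± SD (n = 5) in black; open points are 4-week replicates 1 and 2. For miR-27b the mean ratio was 0.00132 at 4 weeks and 0.000824 at 1 day, while miR-27a at 4 weeks ran from 0.00101 to 0.00696.

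The arm ratios of the other miRNAs did not pass either. miR-24-5p over miR-24-3p averaged 0.00559 ± 0.000408 at 12 weeks and 0.00574 ± 0.000567 at 1 day (exact permutation adjusted p = 0.786, n = 5 each). For miR-27a the adjusted p was 0.889 and for miR-23b 0.736 by the same exact test. miR-27a-5p rested on 13 to 126 reads per library and miR-23b-5p on 6 to 33, against 89 to 238 for miR-27b-5p and 323 to 546 for miR-24-5p. At 4 weeks miR-27a-5p held 4.09, 1.57, 6.64, 4.45 and 15.1 RPM, a spread wider than at any other age. Its change at 12 weeks against 1 day was 0.04 ± 0.36 (limma adjusted p = 0.928), and that of miR-23b-5p was -0.32 ± 0.24 (adjusted p = 0.230). Without 4-week replicates 1 and 2, miR-27a-5p was called higher at 4 weeks against 1 day (1.16, adjusted p = 0.0312) and lower at 12 weeks against 4 weeks (-1.12, adjusted p = 0.0154). Without the same libraries miR-23b-5p was called lower at 12 weeks against 4 weeks (-0.89, adjusted p = 0.00484) and at 8 weeks against 4 weeks (-0.87, adjusted p = 0.0110). These 4 calls were also made without replicate 2 alone (adjusted p from 0.00877 to 0.0375). The change of miR-23b-5p at 12 weeks against 4 weeks was also called without 12-week replicate 1 (-0.70, adjusted p = 0.0259).

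Members also varied among themselves from library to library. Across the 25 libraries miR-23a and miR-27a-3p, neighbours in a cluster, had a Pearson r of 0.61 for log2(RPM + 1), and 0.84 after median-ratio scaling. miR-23a and miR-23b-3p had 0.48, and 0.79 after scaling. The miR-27 copies had -0.51, and 0.33 after scaling, so the sign of that relation also depends on the scaling. miR-23b-3p and miR-27b-3p had 0.40, and 0.63 after scaling. With the age means taken out, these r were 0.59, 0.67, -0.27 and 0.24 in the same order. They describe 25 libraries that share ages, depth and scaling.

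The miRNAs outside the group most like each main product over the 25 libraries differed both within a cluster and between clusters. For miR-27a-3p the closest was miR-451-5p (r = 0.72), an erythroid miRNA, then miR-103-3p (0.64), which lowers insulin sensitivity in mouse liver, and miR-155-5p (0.63), a miRNA of activated immune cells. After median-ratio scaling these r were 0.87, 0.86 and 0.74. By closeness among the miRNAs outside the group they then ranked 2, 3 and 42, so miR-155-5p was no longer among the closest. For miR-23a the closest were miR-107-3p (0.76), let-7b-5p (0.75) and miR-16b-5p (0.74), and after scaling they had 0.89, 0.92 and 0.87. Their ranks were then 5, 1 and 8. For miR-27b-3p the closest were miR-3431-5p (0.84), miR-148b-3p (0.83) and miR-98-5p (0.82), of which only miR-148b-3p stayed high after scaling (0.71, against 0.23 and 0.12). For miR-24-3p the closest were the sheep-named miR-181a (0.77), miR-224-3p (0.74) and miR-214-3p (0.70), and for miR-23b-3p miR-582-5p (0.74), miR-296-3p (0.66) and miR-423-3p (0.65). After scaling miR-582-5p had 0.01 and miR-423-3p 0.37, and miR-296-3p turned to -0.39. With miR-24-3p the scaled r were 0.73 for miR-181a, 0.12 for miR-224-3p and 0.67 for miR-214-3p, at ranks 5, 165 and 13. Among the minor arms, miR-23b-5p was closest to miR-17-5p (0.77), miR-19a (0.76) and miR-19b-3p (0.73), and miR-24-5p to miR-96 (0.73), miR-1343 (0.67) and miR-33b-5p (0.63). After scaling the first 3 had 0.53, 0.64 and 0.48 and the other 3 had 0.11, 0.10 and -0.06. With the age means taken out, the r of miR-27b-3p were 0.54, 0.56 and 0.47, and those of miR-24-5p 0.48, 0.42 and 0.33, in the order named. Those of miR-23a were then 0.77, 0.82 and 0.73, and those of miR-27a-3p 0.63, 0.61 and 0.68. For miR-24-3p they were 0.63, 0.61 and 0.66, for miR-23b-3p 0.68, 0.62 and 0.61, and for miR-23b-5p 0.69 in each case. Outside the group, the closest to miR-27a-5p was miR-155-5p (0.58) and the closest to miR-27b-5p was let-7i-5p (0.55). The members themselves were left out of this search, and miR-23a had a higher r with miR-27a-5p, at 0.70 (0.50 after scaling).

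Markers of other cell types moved over the same ages, and their part in the results was not tested. The erythroid markers miR-451-5p, miR-144-3p and miR-144-5p summed to 2732 to 4371 RPM at 12 weeks and 1382 to 2171 RPM at 1 day. Of these 3, miR-451-5p was called higher (3258 ± 613 RPM at 12 weeks, 1486 ± 290 RPM at 1 day, limma adjusted p = 0.00045, n = 5 each) and miR-144-5p lower. The leukocyte markers miR-150, miR-155-5p, miR-223-3p and miR-146a summed to 2115 to 3717 RPM at 12 weeks and 1079 to 1988 RPM at 1 day, with 2 of 4 called higher. Both arms of the endothelial marker miR-126 summed to 22008 to 27997 RPM at 12 weeks and 27072 to 32834 RPM at 1 day, with 2 of 2 called lower. Over all tested miRNAs 54.8% were called lower and 11.6% higher at 12 weeks against 1 day. The mesenchymal markers miR-143-3p, miR-145-5p, miR-199a-3p and miR-214-3p summed to 93810.5 to 128208 RPM at 12 weeks and 110635 to 137558 RPM at 1 day, with 0 of 4 called by limma. At 4 weeks their sum reached 254137 RPM in the highest library. Striated muscle markers (miR-1, miR-133a-3p, miR-133b and miR-206) summed to 6169 to 13557 RPM at 12 weeks and 593 to 2135 RPM at 1 day, with 3 of 4 called higher. A marker at 0 in any library occurred only among these striated muscle miRNAs, for 2 of the 4. Under median-ratio scaling the calls were 1 of 3 higher for the erythroid markers, with miR-144-5p at 0.08 and not called, 4 of 4 higher for the leukocyte and 4 of 4 for the striated muscle markers, and 1 of 2 higher for the endothelial and 1 of 4 for the mesenchymal markers. None of these was called lower by limma on that scale, where 28.9% of all tested miRNAs were higher and 32.8% lower.

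Other miRNAs known to act on lipid metabolism were set beside miR-27. Of 15 tested with the members left out, 2 were called higher at 12 weeks against 1 day, 8 were called lower and 5 did not pass, with a median change of -0.70. Over all tested miRNAs 11.6% were higher and 54.8% lower, close to the shares of this list. The pair called higher was miR-103-3p, at 2273 ± 327 RPM at 12 weeks and 1200 ± 120 RPM at 1 day (log2 change 0.92), and miR-107-3p (0.48). Those that fell included miR-30c-5p (-0.70), which represses lipoprotein assembly in mouse liver, and miR-33b-5p (-1.64), which lies in a sterol regulator gene and represses cholesterol export in human cells. Neither miR-122 (0.09), the main hepatocyte miRNA, nor miR-148a-3p (0.10) passed. Under median-ratio scaling 5 were called higher and 6 lower by limma, with a median of -0.12. On that scale 28.9% of all tested miRNAs were called higher and 32.8% lower.

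Of 18 miRNAs known from blood vessel growth, 17 were tested, 0 were called higher by limma, 9 were called lower and 8 did not pass, with a median change of -0.30. The 54.8% called lower over all tested miRNAs is close to this share, and 11.6% were higher. Among the most abundant, both arms of miR-126 fell (-0.27 for the 3p arm and -0.64 for the 5p arm), and miR-92a-3p (-0.16), a miRNA that restrains vessel growth in mouse, and miR-16b-5p (0.17) did not pass. miR-126-3p turned sign under median-ratio scaling, to 0.31 (adjusted p = 0.0165). Under median-ratio scaling 28.9% of all tested miRNAs were called higher and 32.8% lower. Of the 17 tested here, 8 were then called higher and 3 lower by limma, with a median of 0.29. Both medians can be set beside -0.54 as deposited, and -0.01 after scaling, for all 405 miRNAs.

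miR-128-3p, whose seed overlaps that of miR-27 shifted along its 5′ end, was described for comparison. Its level was 403 ± 16.9, 295 ± 38.7, 278 ± 84.1, 208 ± 28.6 and 181 ± 24.5 RPM from 1 day to 12 weeks (SD, n = 5 each). It fell by 1.16 ± 0.16 (log2) at 12 weeks against 1 day (limma adjusted p = 1.12e-06), without overlap between the libraries. Under median-ratio and trimmed-mean scaling the changes were -0.58 and -0.69.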

How the data were processed

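Liver small RNA of goat kids was sequenced at 5 ages, with 5 libraries each. Per the labels' protocols, each library was built from 5 ug of Trizol-extracted total RNA. The deposited table gives RPM values, 1 column per library and 463 entries, made by the authors with Bowtie 1.1.1, per the submitters' processing notes. The unit was read from the values, all of which are whole multiples of a step worth a single read (tolerance 0.1 read). Columns sum to 1010981 to 1018216, so some reads may have been counted for several entries. Build, annotation, trimming and the rule for multiple matches are not stated in these sources.

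From these, log2(RPM + 1) was fitted with limma 3.58.1 (R 4.3.3) with a mean-dependent trend, over all 25 libraries with 1 mean per age. The 405 miRNAs with at least 1 RPM in at least 5 libraries were tested. Pairs are later minus earlier age, Benjamini-Hochberg adjusted over all 405 within each comparison, and an adjusted p under 0.05 is a call. Fold changes on this scale understate the change of low miRNAs. The limma step was tested on simulated data. Median-ratio factors came from the 395 miRNAs above 0 in all libraries, and trimmed-mean factors from the recovered reads. Ratios were tested by exact permutation (Python 3.11.15, scipy 1.17.1). The plan also named count tests for whole reads. These were not run. All values fitted the step, as given above, but most libraries hold too few low values for a separate check of the unit to accept it. All read numbers given, and the trimmed-mean factors, are therefore treated as estimates from that step.

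Named miRNAs are the 9 members, miR-128-3p, and up to 4 of the most abundant of each list. The 3 miRNAs outside the group closest to each member by correlation are also named (only the first for miR-27a-5p and miR-27b-5p). Library means and SDs are of RPM. The members and lists were chosen with earlier results of these data known. Of the planned names, miR-185, miR-132, miR-210, miR-503, miR-142 and miR-3074 were not analysed here. No pair of libraries was identical. The closest within an age differed with a chi-square per degree of freedom of 49.0. Counting error is the only error that read numbers cover.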

Additional observations from a re-analysis of the deposited data

Results flagged for a closer look

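Of 100 groups of 5 libraries looked at (45 levels and 55 log2 ratios of the members), 6 held a library far from the other 4, and chance alone flags about 1 in 20 groups. miR-24-3p at 4 weeks had 9024.5 RPM in replicate 5, far above the other 4-week libraries. miR-27b-5p at 8 weeks had 17.2 RPM in replicate 4, again on the high side. miR-27a-5p was high at 2 weeks in replicate 2 with 8.99 RPM and at 12 weeks in replicate 3 with 4.39 RPM. In that 12-week library the log2 ratio of miR-27a-5p to miR-27a-3p was high as well, at -8.75. At 8 weeks the log2 ratio of miR-23b-5p to miR-23b-3p was low in replicate 5, at -12.3. The miR-27a-5p and miR-23b-5p values rest on few reads, as given with their read numbers above.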

How the results depend on the processing

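Scaling turned the sign of most called changes. Values at 12 weeks against 1 day under median-ratio and trimmed-mean scaling, in that order, were 0.77 and 0.66 for miR-23a and 0.78 and 0.67 for miR-27a-3p (both gained a call), and, turned round, 0.42 and 0.31 for miR-23b-3p, 0.30 and 0.19 for miR-24-3p, 0.26 and 0.15 for miR-24-5p, 0.23 and 0.12 for miR-27b-3p. miR-27b-5p turned to 0.42 and 0.32, called under median-ratio scaling only. At 8 weeks against 1 day miR-23b-3p turned to 0.31 and 0.25, miR-24-3p to 0.42 and 0.35 and miR-27b-3p to 0.11 and 0.047. At 12 weeks against 2 weeks miR-23b-3p turned to 0.35 and 0.26, miR-24-3p to 0.11 and 0.018 and miR-27b-3p to 0.17 and 0.075. In that pair miR-24-5p turned to 0.34 and 0.25, called under median-ratio scaling only. At 12 weeks against 4 weeks miR-23a turned to 0.25 and 0.17, again called under median-ratio scaling only. The cause of these shifts was not tested.

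With only the libraries of both ages, miR-24-5p stayed at -0.31 at 12 weeks against 1 day without its call. Leaving out 1 library gave -0.34 to -0.22 for miR-24-3p and -0.35 to -0.27 for miR-24-5p. The 3 called ratios ranged over 0.50 to 0.63 (miR-27a-3p to miR-27b-3p), 0.31 to 0.37 (miR-23a to miR-23b-3p) and 0.41 to 0.54 (miR-27a-3p to miR-24-3p), each with an adjusted p of 0.0582 in all 10 fits, since 4 libraries against 5 allow no smaller raw p. By limma over all 25 libraries their adjusted p-values were 0.00688, 0.00814 and 0.00509.

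The labels do not say what the replicate numbers stand for. Of 50 same-numbered pairs of libraries 11 had a correlation over 0.1, and 1 of 25 libraries was closest to its own number. The median correlation was -0.031 for same-numbered pairs and 0.0077 for other pairs. These values show no pairing by number, but cannot exclude a weak one. With the replicate number as a block, the paired ratios stayed at 0.56, 0.34 and 0.48, with an adjusted p of 0.172 that cannot pass since the smallest p is 0.0625. In limma the block changed 1 call, miR-23b-5p at 12 weeks against 4 weeks (-0.57, adjusted p = 0.0379), beside calls for 267 miRNAs at 12 weeks against 1 day and 253 in the F test. Over all settings the number of miRNAs called stayed within 1.5 times, with 269 at 12 weeks against 1 day and 262 in the F test as reported. The pseudocount (0.1 or 10) and the filters changed no call of a member. Count tests were not run. Low read numbers limit miR-27a-5p and miR-23b-5p.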
